A study of Homo sapiens with 8 samples.

Results

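The caveola genes examined here are 7 genes whose products build or finish the caveola coat, namely *CAV1*, *CAV2*, the cavins *CAVIN1* (*PTRF*), *CAVIN2* (*SDPR*) and *CAVIN3* (*PRKCDBP*), *EHD2* and *PACSIN2*. They were chosen as a family by gene name, and *CAV2* entered because it was lower in all the knockdowns, so that its changes from the control are given as a description with no test. All 7 were found among the 20030 genes of the files, 4 under the given symbol and 3, the cavins, under their current one. Of the 7, 6 had at least 1 FPKM (fragments scaled by transcript length and library size) in at least 2 libraries and entered the fit, and *CAVIN2* did not. The cells were HCT116, a human colorectal cancer line, transfected with siRNA, in 8 libraries. The control siRNA (siNC) had 2 libraries and siRNA against *HHEX*, a homeobox transcription factor, had 3 (siHHEX). siRNAs against *YAP1* and *WWTR1*, which encode the coactivators YAP and TAZ, had 2 (siYAP/TAZ), and siRNAs against the YAP/TAZ partners *TEAD1* to *TEAD4* had 1 (siTEAD1/2/3/4). The study's methods list 3 siRNAs against *HHEX* and 2 siRNA pairs against *YAP1* and *WWTR1*, numbered as the libraries are, but do not tie a library to an siRNA. Replicates of a knockdown may thus differ in siRNA. The sample number of siHHEX 3 lies apart from the run that holds the other libraries. Whether siHHEX 3 was prepared with them is not stated. The labels do not say that libraries of a group came from separate cultures, and p-values measure the spread between these samples, of which the technical share is unknown. Library sums ran from 331663 FPKM (siYAP/TAZ 1) to 383423 FPKM (siHHEX 3). Read numbers are unknown. Ratios of the smallest values to those of siNC 1 had medians from 0.948 to 1.06, taken as relative depth. Only genes within 0.3 of siNC 1 on the log2 scale entered these medians. A larger difference in depth could thus not show.

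Caveolae are small flask-shaped pits of the plasma membrane. Caveolins are hairpin membrane proteins that bind cholesterol and oligomerize in the pit, where caveolin-1 is needed to make caveolae in most cells outside muscle and caveolin-2 joins it in hetero-oligomers. Cavins form a peripheral coat on the cytoplasmic face, with cavin-1 required for the pit, and the ATPase EHD2 sits at the neck while the F-BAR protein PACSIN2 bends the membrane. In epithelial and other cells caveolae flatten under membrane tension, and *CAV1* has been studied as a gene under YAP and TEAD control.

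*CAV2* and *CAV1* lie head to tail on chromosome 7 of GRCh38, both on the plus strand. In GENCODE annotation *CAV2* runs from 116287380 to 116508541 and *CAV1* from 116524994 to 116561179, which leaves 16452 bases between them. The other genes are unlinked, *CAVIN1* on chromosome 17 (42402449 to 42423256), *CAVIN2* on chromosome 2 (191834310 to 191847088), *CAVIN3* on chromosome 11 (6318946 to 6320532), *EHD2* on chromosome 19 (47713422 to 47743134) and *PACSIN2* on chromosome 22 (42835412 to 43015149). *PACSIN2* overlaps the protein-coding gene *ARFGAP3* on its strand, and each of the others overlaps at least 1 annotated long noncoding RNA. The sources used here do not give the strand setting of the libraries, and reads of overlapping genes cannot be told apart. The 250 bases before a RefSeq start of *CAV2* and of *CAV1* are shown because these are the 2 members that were lower in every knockdown library by the widest margin, with GC boxes (GGGCGG, either strand) in capitals.
CAV2, chr7:116499488-116499737, plus strand, GRCh38.p14: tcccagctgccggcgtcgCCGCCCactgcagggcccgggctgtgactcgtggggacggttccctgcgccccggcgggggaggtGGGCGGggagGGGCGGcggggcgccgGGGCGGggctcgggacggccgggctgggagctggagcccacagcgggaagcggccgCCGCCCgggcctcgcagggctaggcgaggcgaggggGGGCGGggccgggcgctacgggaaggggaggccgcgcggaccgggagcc
CAV1, chr7:116524759-116525008, plus strand, GRCh38.p14: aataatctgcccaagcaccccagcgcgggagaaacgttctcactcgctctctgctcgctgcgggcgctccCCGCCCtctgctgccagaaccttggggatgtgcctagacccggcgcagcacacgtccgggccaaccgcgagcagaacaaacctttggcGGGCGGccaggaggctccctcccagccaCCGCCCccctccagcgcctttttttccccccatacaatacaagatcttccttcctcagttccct

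The 300-base windows of these starts, from 250 bases before to 50 after, held 6 GC boxes for *CAV2* and 3 for *CAV1*, and 45.0% of the 35116 RefSeq promoter windows of this length held at least 1. The GC box was searched after the sequences were seen. The core letters of the TEAD motif, GGAATG on either strand, were in none of the 2 windows of *CAV2*, the 3 of *CAV1* and the 1 of *EHD2*. They were in the 1 window of *CAVIN2* and in 4 of the 6 of *PACSIN2*, against 14.0% of all windows. Windows 1 to 3 of *PACSIN2* overlap and hold the same match, and 16.7% of all genes had a match in any window. The 3 matching stretches that do not repeat each other are shown with these letters in capitals.
CAVIN2, chr2:191847087-191847116, minus strand, GRCh38.p14: ttaagagcagctGGAATGcagttcccctga
PACSIN2, chr22:42959931-42959960, minus strand, GRCh38.p14: cagcagtgtatgGGAATGaccttatctcgg
PACSIN2, chr22:42947237-42947266, minus strand, GRCh38.p14: ggtggcctggagCATTCCtcttctccctcc

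The AP-1 letters TGACTCA or TGAGTCA were in no window of these 5 genes and in 4.95% of all windows. No match printed here overlaps a match to another motif.

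The siRNA targets and cell type markers set the frame for the caveola genes. The siNC libraries had 8.60 and 9.06 FPKM of *HHEX*, and the siHHEX libraries 3.25, 3.54 and 1.85 FPKM, all below siNC. *YAP1* was at 20.2 and 19.7 FPKM in siNC and at 6.90 and 8.39 FPKM in siYAP/TAZ, but also at 5.77 and 6.93 FPKM in siHHEX 1 and 3 against 17.4 FPKM in siHHEX 2. *WWTR1* went from 6.80 and 6.72 FPKM to 2.64 and 2.58 FPKM in siYAP/TAZ. In the siTEAD1/2/3/4 library *TEAD4* was at 5.56 FPKM against 20.3 and 21.3 FPKM in siNC and *TEAD1* at 9.02 against 18.3 and 19.0 FPKM, while *TEAD3* was at 9.08 against 7.36 and 6.99 FPKM and so was not lowered. *TEAD2* was at 2.73 against 4.10 and 3.47 FPKM in siNC. Some targets of 1 siRNA set were also called under another. With GC content and length corrected for, the only higher call, *TEAD2* in siHHEX, and the lower call of *YAP1* in siHHEX were lost. *YAP1* in siHHEX had a log2 change of -1.07 (adjusted p = 0.0429, limma), or -0.75 with the correction (adjusted p = 0.161). In siYAP/TAZ *YAP1* itself was at -1.28 and not called (adjusted p = 0.0681, limma), and at -1.39 with the correction (adjusted p = 0.0354). *TEAD2* was higher in siHHEX, at 6.50, 8.02 and 7.18 FPKM (log2 change 0.78, adjusted p = 0.00709, limma), and at 5.54 and 6.32 FPKM in siYAP/TAZ (0.54, adjusted p = 0.0586). With GC content and length corrected for, *TEAD2* in siHHEX was at 0.47 and not called (adjusted p = 0.0734, limma). *TEAD4* in siHHEX was then called lower (-0.50, adjusted p = 0.0312), against -0.11 as deposited (adjusted p = 0.503). *TEAD1* was at 6.99, 10.2 and 5.30 FPKM in the siHHEX libraries, *TEAD4* at 12.5 and 13.6 FPKM in siYAP/TAZ (log2 change -0.64, adjusted p = 0.0250, limma), and *HHEX* at 4.80 and 7.12 FPKM there (-0.52, adjusted p = 0.196).

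The cells carried the markers of their label only in part. Of 7 intestinal epithelium markers, *KRT8*, a simple epithelium keratin, was the most abundant at 897 to 1757 FPKM, and *VIL1*, the microvillus protein villin, stayed at or under 0.0335 FPKM. Of endothelium, in which caveolae are plentiful, all 5 markers were below 1 FPKM everywhere, and so were all 4 adipocyte markers, with *LEP* at 0 in each library. Of 7 fibroblast and smooth muscle markers, 5 were below 1 FPKM everywhere, and the most abundant, *ACTA2*, was at 0.510 to 2.79 FPKM. The fibroblast and smooth muscle markers summed to 1.77 and 1.35 FPKM in siNC, 2.05, 2.57 and 2.90 in siHHEX, 3.19 and 5.33 in siYAP/TAZ and 2.51 in siTEAD1/2/3/4, and so were higher in every knockdown library, where the caveolins were lower. The epithelium markers summed to 2679 and 2801 FPKM in siNC, 2458, 2599 and 2687 in siHHEX, 1444 and 1473 in siYAP/TAZ and 2180 in siTEAD1/2/3/4. These sums are mostly *KRT8* and *KRT18*, and over the 6 tested epithelium markers the median log2 change was -0.033 in siYAP/TAZ, with 3 of 6 negative. *ACTA2* rose (log2 fold change 0.999, adjusted p = 0.0234) and *KRT8* and *KRT18* fell (-0.88, adjusted p = 0.00227, and -1.22, adjusted p = 0.000861) in siYAP/TAZ by limma, a linear model with a spread moderated across all genes, with Benjamini-Hochberg adjustment. In siHHEX the same test called *EPCAM* (-0.38, adjusted p = 0.0289) and *KRT18* (-0.29, adjusted p = 0.0348) lower, neither of them with median scaling, and *CDX2* higher (0.42, adjusted p = 0.0420). With GC content corrected for, *KRT18* (-0.68, adjusted p = 0.00485) and *KRT8* (-0.34, adjusted p = 0.0432) were called lower in siHHEX, and *EPCAM* and *CDX2* were not called (adjusted p = 0.106 and 0.473). The part of these markers in the caveola genes was not tested.

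Caveolin-1 was the most abundant of the coat transcripts and was lower in every knockdown. *CAV1* was at 187.5 and 179.8 FPKM in siNC, at 60.3, 91.2 and 76.4 FPKM in siHHEX, at 86.3 and 107.9 FPKM in siYAP/TAZ and at 99.5 FPKM in siTEAD1/2/3/4. The siNC libraries were the 2 highest, as for 10.3% of all tested genes, and siHHEX 1 was the lowest. In bulk RNA, fewer cells that express a gene and less of its RNA per cell cannot be told apart. The group means were 184 ± 5.48 FPKM (SD, n = 2) in siNC, 76.0 ± 15.5 (n = 3) in siHHEX and 97.1 ± 15.2 (n = 2) in siYAP/TAZ, that is 41.4% and 52.9% of siNC, and the siTEAD1/2/3/4 library was at 54.2%. In siNC *CAV1* ranked 262 and 270 among all genes by FPKM, and in the knockdown libraries it ranked between 459 and 937.

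**Figure D1:**
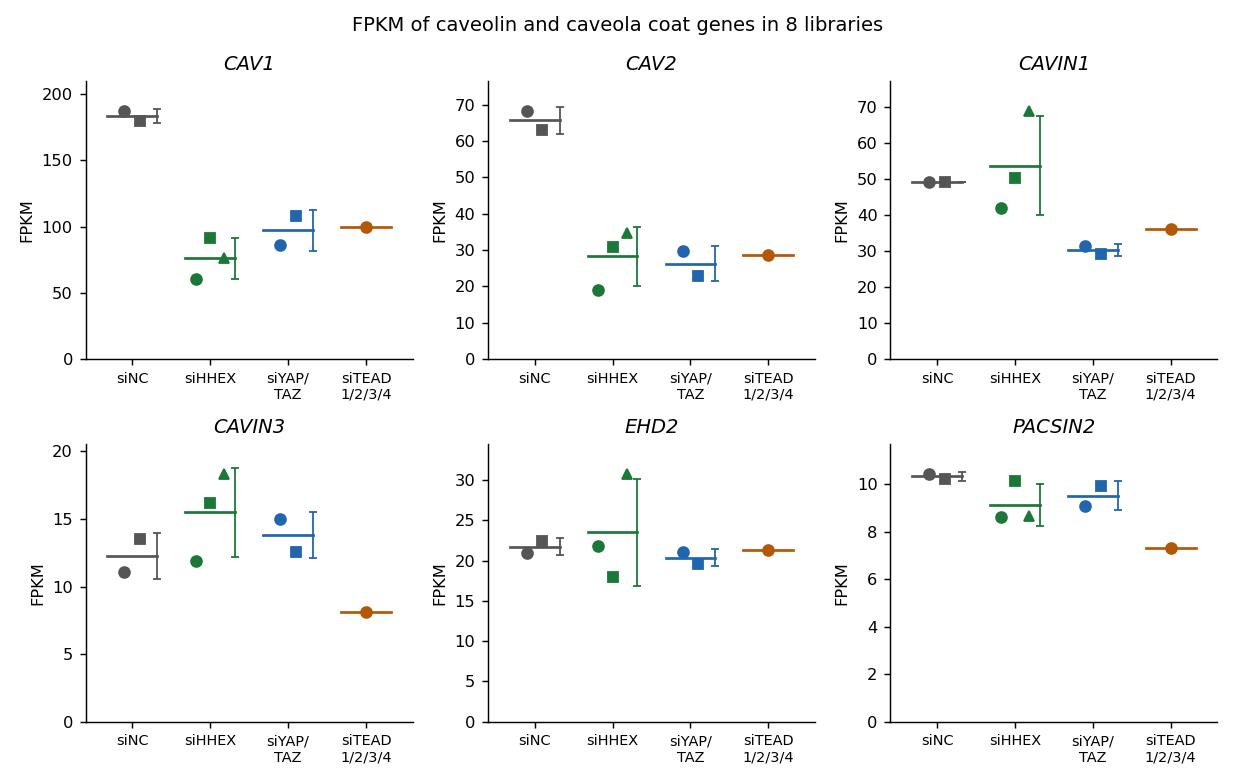
FPKM of the 6 caveola genes in the fit (vertical axis, linear, from 0, a separate scale per panel) in each library, by condition on the horizontal axis. Points are libraries, with the marker shape giving the replicate number, horizontal lines are the means of the conditions and error bars the SD where a condition has more than 1 library; *CAV1* and *CAV2* have both siNC points above all 6 knockdown points, while *CAVIN1* is lowest in siYAP/TAZ.

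By limma with Benjamini-Hochberg adjustment, *CAV1* fell in siHHEX by 1.28 on the log2(FPKM + 1) scale (SE 0.170, adjusted p = 0.00387, lower in 3 of 3 libraries). It fell in siYAP/TAZ by 0.92 (SE 0.186, adjusted p = 0.0228, lower in 2 of 2). In the single siTEAD1/2/3/4 library it differed from the siNC mean by -0.88, short of the 2-fold change used to call that library. *CAV1* was the only caveola gene called in siHHEX and in siYAP/TAZ, 1 of the 5 tested besides *CAV2*. Of all 10677 tested genes, 32.9% were called in siHHEX (16.9% lower, 16.0% higher) and 8.28% in siYAP/TAZ (2.13% lower, 6.15% higher). Scaled to the median of the tested genes, the split was 13.7% lower and 20.6% higher in siHHEX and 3.34% lower and 3.33% higher in siYAP/TAZ. The median log2 change of all tested genes was -0.0055 in siHHEX, 0.082 in siYAP/TAZ and 0.060 in siTEAD1/2/3/4. In siTEAD1/2/3/4 0 of these 5 genes changed over 2-fold, against 0.89% of all tested genes, and *CAV1* alone passed a 1.5-fold change, which 2.18% of tested genes passed downwards. By the study's criterion, over 2-fold and an unadjusted p under 0.05, *CAV1* was called in siHHEX, with 0.927% of tested genes lower, and not in siYAP/TAZ, with 0.431% lower. The siHHEX call was lost without siNC 1 (adjusted p = 0.0746) or siNC 2 (0.0589), and across all 12 alternatives the log2 change was between -1.42 and -0.95 with adjusted p from 0.00247 to 0.0746. The siYAP/TAZ call was lost without any 1 library of the 2 groups, with adjusted p = 0.168 without siNC 1, 0.148 without siNC 2, 0.0761 without siYAP/TAZ 1 and 0.0772 without siYAP/TAZ 2. Across its 11 alternatives the log2 change was between -1.08 and -0.76, with adjusted p between 0.0104 and 0.168.

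As deposited, the mean of caveolin-2 was between 40.0% and 43.6% of its control in the 3 knockdowns, though single siHHEX libraries ran from 29.0% to 52.9% and the siHHEX change was smaller once GC content was corrected for (-0.78, against -1.36 in siYAP/TAZ). *CAV2* was at 68.3 and 63.1 FPKM in siNC, at 19.0, 31.0 and 34.8 FPKM in siHHEX, at 29.6 and 22.9 FPKM in siYAP/TAZ and at 28.7 FPKM in siTEAD1/2/3/4. These values are those on which the gene was noted, and no test is given. All 6 knockdown libraries were below both siNC libraries, as for 10.3% of all tested genes, with siHHEX 1 the lowest. The means were 65.7 ± 3.67 FPKM (SD, n = 2) in siNC, 28.3 ± 8.21 (n = 3) in siHHEX and 26.3 ± 4.75 (n = 2) in siYAP/TAZ, which is 43.0% and 40.0% of siNC, and siTEAD1/2/3/4 was at 43.6%. On the log2(FPKM + 1) scale the changes were -1.23, -1.30 and -1.17 in siHHEX, siYAP/TAZ and siTEAD1/2/3/4. In the knockdown libraries *CAV2* ranked between 1733 and 2746 of all genes, against 812 and 868 in siNC.

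Within the caveolin pair, the ratio of *CAV1* to *CAV2* in FPKM was 2.74 and 2.85 in siNC. It was 3.17, 2.95 and 2.197 in siHHEX, 2.91 and 4.71 in siYAP/TAZ and 3.47 in siTEAD1/2/3/4. The knockdown libraries lay on both sides of siNC, and the highest ratio, in siYAP/TAZ 2, came from the highest *CAV1* and the second lowest *CAV2* of the 6. The Pearson correlation of the 2 genes on log2(FPKM + 1) was 0.876 over the 8 libraries, which share the difference between siNC and the knockdowns.

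Neither *CAVIN1* nor *CAVIN3* was called in siHHEX, and cavins were not tested against caveolins. *CAVIN1*, which encodes the cavin needed for the coat, was at 49.1 FPKM in both siNC libraries. It was at 42.0, 50.2 and 69.0 FPKM in siHHEX, which lie on both sides of siNC, with siHHEX 3 the highest of the 8 libraries. It was at 31.5 and 29.2 FPKM in siYAP/TAZ and at 36.1 FPKM in siTEAD1/2/3/4, all 3 below siNC, and 24.8% of tested genes had both siYAP/TAZ libraries below siNC. The siHHEX mean was 109% of siNC, the siYAP/TAZ mean 61.8% and the siTEAD1/2/3/4 library 73.6%. By limma, the log2 change of *CAVIN1* in siHHEX was 0.098 (SE 0.182, adjusted p = 0.687), and -0.095 without siHHEX 3. In siYAP/TAZ it was -0.68 (SE 0.200), which missed the threshold with an adjusted p of 0.0657. Over the 11 alternatives of the siYAP/TAZ value, adjusted p was between 0.0162 and 0.293, and the call was made with median scaling (0.0497), with only the 2 groups fitted (0.0162) and with GC content and length corrected for (0.0260).

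*CAVIN3*, a cavin that binds protein kinase C delta, was at 11.1 and 13.5 FPKM in siNC. It was at 11.9, 16.2 and 18.4 FPKM in siHHEX, at 15.0 and 12.6 in siYAP/TAZ and at 8.12 in siTEAD1/2/3/4. The siHHEX and siYAP/TAZ values overlap siNC, and the siTEAD1/2/3/4 library was the lowest of the 8. By limma, the log2 changes of *CAVIN3* were 0.30 in siHHEX (adjusted p = 0.220) and 0.16 in siYAP/TAZ (adjusted p = 0.651), and -0.54 in siTEAD1/2/3/4. *CAVIN2*, whose product shapes caveolae in endothelium, was listed at 0 in 5 libraries and at most at 0.0228 FPKM, in siHHEX 3.

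No change of the neck and membrane-bending genes passed the test. *EHD2* was at 21.0 and 22.5 FPKM in siNC, at 21.8, 17.9 and 30.8 in siHHEX, at 21.1 and 19.6 in siYAP/TAZ and at 21.3 in siTEAD1/2/3/4. The groups overlap, and siHHEX holds both the lowest and the highest library. Its log2 changes by limma were 0.076 in siHHEX (95% interval -0.36 to 0.51, adjusted p = 0.774), -0.090 in siYAP/TAZ (-0.57 to 0.39, adjusted p = 0.823) and -0.026 in siTEAD1/2/3/4. The siHHEX value of *EHD2* was -0.13 without siHHEX 3 and 0.25 without siHHEX 2, so that its direction rests on 1 library. *PACSIN2* was at 10.5 and 10.2 FPKM in siNC, at 8.61, 10.1 and 8.66 in siHHEX, at 9.09 and 9.95 in siYAP/TAZ and at 7.31 in siTEAD1/2/3/4. All 6 knockdown libraries lie below siNC, by a small margin in siHHEX 2. The log2 changes of *PACSIN2* by limma were -0.16 in siHHEX (95% interval -0.45 to 0.12, adjusted p = 0.319), -0.11 in siYAP/TAZ (-0.42 to 0.20, adjusted p = 0.649) and -0.45 in siTEAD1/2/3/4. Besides *CAV2*, chosen for being low, 2 of the 5 tested members, *CAV1* and *PACSIN2*, were below both siNC libraries in all 6 knockdown libraries, as were 10.3% of all tested genes. An exact permutation test of a single gene cannot go under 0.2 with 2 against 3 libraries, or under 0.333 with 2 against 2 (both two-sided).

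**Figure D2:**
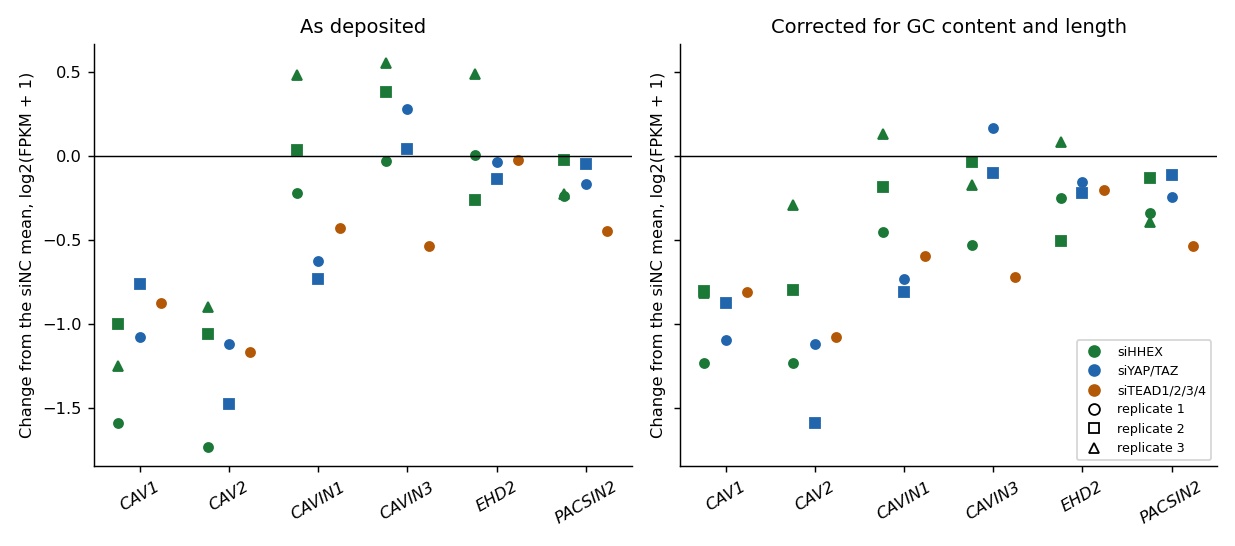
Difference of each library from the siNC mean on log2(FPKM + 1) (vertical axis) for the 6 caveola genes with enough signal (horizontal axis). The left panel has the values as deposited and the right panel those corrected for GC content and length, with colours for conditions and shapes for replicate numbers. As deposited, the caveolins lie between -1.73 and -0.76 in the knockdown libraries, and *CAVIN1* is higher in siHHEX than in siYAP/TAZ.

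The direct comparison of the 2 replicated knockdowns takes no mean from siNC, though siNC enters the pooled spread, and no test is given for *CAV2*, which was chosen for being low in both. With only the 2 groups fitted, the *CAVIN1* call below kept its side of the threshold (adjusted p = 0.0236). *CAVIN1* was higher in siHHEX (42.0, 50.2 and 69.0 FPKM) than in siYAP/TAZ (31.5 and 29.2 FPKM). The difference was 0.78 on the log2(FPKM + 1) scale (SE 0.182, 95% interval 0.37 to 1.19, adjusted p = 0.0122, limma with Benjamini-Hochberg adjustment). It was the only 1 of the 5 tested members besides *CAV2* called, while 39.3% of all tested genes were, 13.5% higher and 25.9% lower in siHHEX. With median scaling the split was 23.5% higher and 14.2% lower, and the median log2 difference of all tested genes was -0.129 without that scaling. By the study's criterion 0 of these 5 were called, against 1.52% of all tested genes. Without siYAP/TAZ 2 the *CAVIN1* difference was 0.72 with adjusted p = 0.0831, and over its 12 alternatives adjusted p was between 0.0056 and 0.0949.

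For *CAV1* no difference between the knockdowns was detected, and the interval is wide. The means of *CAV2* differed by 0.070, given as a description. *CAV1* was at -0.36 in siHHEX relative to siYAP/TAZ (SE 0.170, 95% interval -0.74 to 0.021, adjusted p = 0.115). It passed the threshold without siHHEX 2, at -0.50 with adjusted p = 0.0268, and turned to 0.037 once GC content and length were corrected for (adjusted p = 0.891). *CAVIN3* differed by 0.14 (adjusted p = 0.552), *EHD2* by 0.17 (adjusted p = 0.507) and *PACSIN2* by -0.055 (adjusted p = 0.736). These adjusted p-values are from limma over the 10677 tested genes.

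The caveolin transcripts have fewer G and C bases than those of the other tested members, and in the siHHEX libraries change went with GC content across all genes. The canonical transcript has 36.3% GC for *CAV2* and 40.9% for *CAV1*, against 53.3% for *PACSIN2*, 59.2% for *CAVIN1*, 61.2% for *EHD2* and 66.7% for *CAVIN3*. The untested *CAVIN2* has 42.9%, near the caveolins. Over 10349 tested genes, which are not independent replicates, the Spearman correlation between GC content and the change from the siNC mean was 0.679, 0.599 and 0.756 in the siHHEX libraries. It was 0.0609 and -0.0519 in siYAP/TAZ and 0.30 in siTEAD1/2/3/4, and the 2 siNC libraries differed from their mean with correlations of -0.211 and 0.211. Genes poor in G and C were thus lower, and rich ones higher, in siHHEX.

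**Figure D3:**
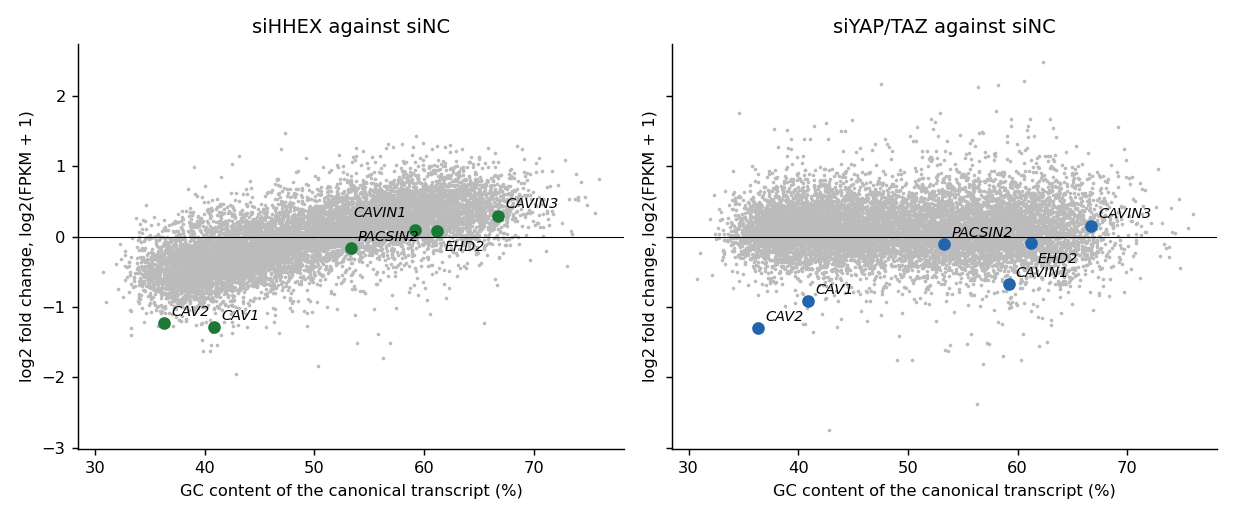
Log2 fold change on log2(FPKM + 1) (vertical axis) against the GC content of the canonical transcript in percent (horizontal axis), for siHHEX and siYAP/TAZ against siNC. Grey points are the tested genes and coloured points the caveola genes; the cloud rises with GC content in siHHEX and not in siYAP/TAZ, and both caveolins lie at the lower edge of the cloud in each.

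With the trend on GC content and length taken off each library, *CAV1* was still lower by limma, at -0.95 in siHHEX (adjusted p = 0.0148) and -0.99 in siYAP/TAZ (adjusted p = 0.0104), and stood at -0.81 in siTEAD1/2/3/4. *CAV2* became -0.78, -1.36 and -1.08 in siHHEX, siYAP/TAZ and siTEAD1/2/3/4. Its siHHEX libraries then stood at -1.23, -0.80 and -0.29, so that siHHEX 3 kept the smallest change from siNC. The corrected *CAVIN1* value was -0.17 in siHHEX (adjusted p = 0.513), with its sign turned, and -0.77 in siYAP/TAZ (adjusted p = 0.0260). Between siHHEX and siYAP/TAZ the corrected *CAVIN1* difference was 0.60 (adjusted p = 0.0468), and *CAV2*, untested, differed by 0.58. The corrected values of *CAVIN3* and *EHD2* in siHHEX were -0.25 and -0.23 (adjusted p = 0.371 and 0.394), also with their signs turned. Whether the GC trend is technical was not tested.

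The summed caveolins relative to the summed cavins are given as a description, since the sum holds *CAV2*. This ratio was lower in each knockdown library than in siNC. Summed per length, *CAV1* and *CAV2* gave 256 and 243 FPKM in siNC, 79.3, 122 and 111 in siHHEX, 116 and 131 in siYAP/TAZ and 128 in siTEAD1/2/3/4. *CAVIN1* and *CAVIN3* together gave 60.2 and 62.6 FPKM in siNC, 54.0, 66.4 and 87.4 in siHHEX, 46.5 and 41.7 in siYAP/TAZ and 44.3 in siTEAD1/2/3/4. The ratio of the sums was 4.25 and 3.88 in siNC, 1.47, 1.84 and 1.27 in siHHEX, 2.49 and 3.13 in siYAP/TAZ and 2.90 in siTEAD1/2/3/4. Its means were 4.07 ± 0.261 (SD, n = 2) in siNC, 1.53 ± 0.288 (n = 3) in siHHEX and 2.81 ± 0.453 (n = 2) in siYAP/TAZ. All knockdown libraries were below siNC and the 3 siHHEX libraries were the lowest of all, while siTEAD1/2/3/4 lay between the siYAP/TAZ libraries. Corrected for GC content and length, an alternative chosen for this ratio after the data were seen, it was 3.35 and 3.23 in siNC, 1.94, 2.09 and 1.97 in siHHEX, 2.14 and 2.49 in siYAP/TAZ and 2.78 in siTEAD1/2/3/4. The order of the means was the same, with siHHEX and siYAP/TAZ closer together and siTEAD1/2/3/4 above both siYAP/TAZ libraries. Since *CAV2* enters the ratio and was chosen for being low in the knockdowns, no test is given. The ratio of *CAV1* to *CAVIN1* alone was 3.82 and 3.66 in siNC, 1.43, 1.82 and 1.11 in siHHEX, 2.74 and 3.70 in siYAP/TAZ and 2.75 in siTEAD1/2/3/4. Without *CAV2*, siYAP/TAZ 2 thus lay between the siNC libraries, and siHHEX was still the lowest.

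**Figure D4:**
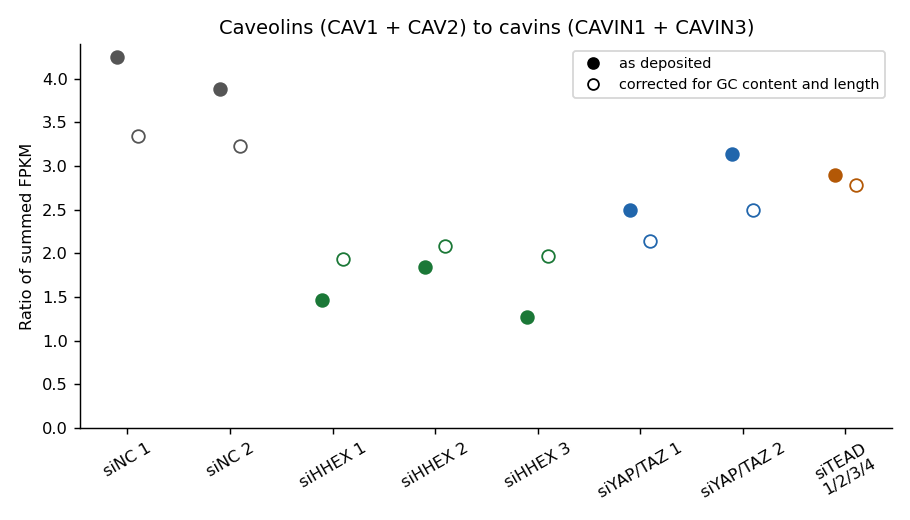
Ratio of the summed FPKM of *CAV1* and *CAV2* to that of *CAVIN1* and *CAVIN3* (vertical axis, from 0) in each library (horizontal axis, coloured by condition). Filled points are the values as deposited and open points those with GC content and length corrected for; siNC is highest by both (4.25 and 3.88 as deposited) and siHHEX lowest (1.27 to 1.84).

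Likeness among the members over the 8 libraries was highest for the caveolin pair. Pearson's r on log2(FPKM + 1) was 0.567 between *CAV1* and *PACSIN2* and 0.605 between *CAVIN1* and *EHD2*, but 0.062 between *CAV1* and *CAVIN1* and 0.458 between *CAV2* and *CAVIN1*. *CAVIN1* and *CAVIN3* had 0.470, and *CAVIN3* had -0.247 with *CAV1* and 0.024 with *CAV2*. *CAVIN3* had 0.424 with *PACSIN2* and 0.345 with *EHD2*. These 8 points share their libraries, and the members differ in GC content, so that the values are a description. *CAV1* was not among the genes most like *CAV2*, ranking 85 of the tested genes, and *CAV2* ranked 220 for *CAV1*.

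The genes most like *CAV1* over the 8 libraries were *RSL1D1*, a nucleolar protein (r = 0.977), *ARHGAP29* (0.976), *PHAX*, an snRNA export adaptor (0.975), *DYNC1LI1*, a dynein light intermediate chain (0.973), and *MRPS35*, a mitochondrial ribosomal protein (0.970). *ARHGAP29* changed by -1.20, -0.66 and -0.67 in siHHEX, siYAP/TAZ and siTEAD1/2/3/4 on the log2 scale, and the other 4 by between -0.63 and -0.25. With the GC correction r was 0.959 for *ARHGAP29* and 0.426 for *DYNC1LI1*. Those most like *CAV2* were *CRIM1*, a transmembrane protein that binds BMPs (r = 0.972), *TTC4* (0.967), *SEMA7A*, a membrane-anchored semaphorin (0.965), *PMAIP1*, which encodes the BH3-only protein NOXA (0.964), and *GEMIN5*, of the SMN complex (0.964). In siHHEX, siYAP/TAZ and siTEAD1/2/3/4, the log2 changes of *SEMA7A* were -1.11, -1.39 and -1.11 and those of *CRIM1* -0.92, -0.92 and -0.74. With a siNC mean of 3.54 FPKM, the change of *CRIM1* is understated on this scale. With the GC correction r for *PMAIP1* was 0.987 and for *SEMA7A* 0.879.

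Among the 4 tested neighbours of the caveolins, 3 were called lower in siHHEX too, against 16.9% of all tested genes, and none of these passed the test in siYAP/TAZ, where 2.13% were lower. The protein-coding genes within 500 kb were chosen by position after the caveolin values were known. *TES*, a focal adhesion protein upstream of *CAV2*, was at 47.9 and 46.9 FPKM in siNC, 27.2, 35.5 and 31.1 in siHHEX, 42.7 and 30.7 in siYAP/TAZ and 43.4 in siTEAD1/2/3/4. *MET*, the receptor of hepatocyte growth factor downstream of *CAV1*, was at 36.3 and 37.5 FPKM, then 16.5, 18.7 and 21.1, then 29.2 and 28.2, and 22.6 in the same order. *CAPZA2*, an actin capping protein, was at 45.7 and 42.7 FPKM, then 20.0, 14.9 and 20.7, then 38.9 and 43.1, and 35.5. In siHHEX all 3 lay below siNC without overlap, as did 33.8% of tested genes.

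By limma with Benjamini-Hochberg adjustment, *TES* (log2 change -0.59, adjusted p = 0.0240), *MET* (-0.95, adjusted p = 0.00387) and *CAPZA2* (-1.22, adjusted p = 0.00368) fell in siHHEX. In siYAP/TAZ their log2 changes were -0.38, -0.35 and -0.11 (adjusted p = 0.203, 0.141 and 0.721), against -0.92 for *CAV1*. In siTEAD1/2/3/4 they were -0.13, -0.69 and -0.31. *ST7* had -0.21 in siHHEX (adjusted p = 0.419), and *TFEC* was under the filter. The 3 genes that fell have 43.2%, 43.5% and 39.8% GC, and with the GC correction their siHHEX changes were -0.32 for *TES* (adjusted p = 0.223), -0.62 for *MET* (adjusted p = 0.0332) and -0.79 for *CAPZA2* (adjusted p = 0.0507). Compared directly, where 25.9% of all tested genes were lower, siHHEX was lower than siYAP/TAZ for *CAPZA2* (by limma -1.12, adjusted p = 0.00407) and *MET* (-0.59, adjusted p = 0.00904), while for *TES* the difference was -0.21 (adjusted p = 0.304). After the GC correction these differences were -0.58 and -0.14 (adjusted p = 0.102 and 0.529).

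**Figure D5:**
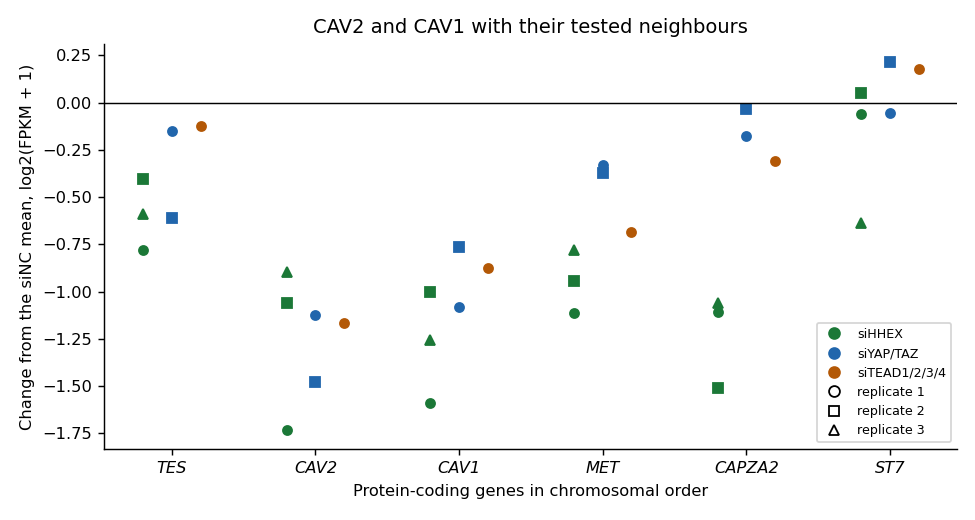
Difference of each knockdown library from the siNC mean on log2(FPKM + 1) (vertical axis) for *CAV2*, *CAV1* and the tested protein-coding genes within 500 kb, in chromosomal order (horizontal axis, not to scale). Colours are conditions and marker shapes replicate numbers; at *CAPZA2* the siHHEX points lie below -1 and the siYAP/TAZ points near 0, while at the caveolins both lie below -0.7.

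Relatives of the coat proteins and the proteins that work with them were taken as a list of 10 genes, of which 6 were tested. *CAV3*, the muscle caveolin, was at 0 in every library, and *CAVIN4*, *EHD3* and *ROR1* were under the filter. In siHHEX 1 of the 6 was higher and 0 lower, against 16.0% and 16.9% of all tested genes, with a median log2 change of 0.060. This was *PACSIN3*, a PACSIN relative (0.45, adjusted p = 0.0247, limma), whose value was 0.033 with the GC correction. In siYAP/TAZ 1 was lower and 0 higher, against 2.13% and 6.15%, with a median of -0.27. This was *FLNA*, the actin crosslinker filamin A that binds caveolin-1, at 91.5 and 102.8 FPKM in siNC, 75.3, 77.8 and 87.7 in siHHEX, 53.3 and 50.6 in siYAP/TAZ and 76.4 in siTEAD1/2/3/4. *FLNA* was lower in every knockdown library than in siNC, as were 10.3% of all tested genes, and lowest in siYAP/TAZ. By limma *FLNA* fell by 0.89 in siYAP/TAZ (adjusted p = 0.00863), had -0.27 in siHHEX (adjusted p = 0.0906), or -0.55 with the GC correction (adjusted p = 0.0149), and was higher in siHHEX than in siYAP/TAZ by 0.62 (adjusted p = 0.00606), as *CAVIN1* was. *DNM2*, the dynamin that pinches off vesicles, was also higher in siHHEX than in siYAP/TAZ (0.38, adjusted p = 0.0388), and its difference was 0.18 with the GC correction (adjusted p = 0.237). In this comparison 2 of the 6 were thus higher and 0 lower, against 13.5% and 25.9% of all tested genes. With median scaling 3 were higher, against 23.5% of all tested genes. With the GC correction 1 was higher, *FLNA* (0.51, adjusted p = 0.0157), against 5.46%. Against siNC, the counts with the GC correction became 1 lower (*FLNA*) and 0 higher in siHHEX. In siYAP/TAZ they became 2 lower (*FLNA* and *EHD1*, an EHD2 relative, at -0.76 with adjusted p = 0.0428) and 0 higher. Of all genes with this correction, 3.2% were lower and 3.58% higher in siHHEX, and 6.12% lower and 5.3% higher in siYAP/TAZ. In siTEAD1/2/3/4 0 of the 6 changed over 2-fold.

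The 6 genes of caveolin phosphorylation and turnover were all tested. In siHHEX 1 was lower, the Src family kinase *YES1* (log2 change -0.60, adjusted p = 0.0215, limma), and 2 were higher, the kinase *ABL1* (0.32, adjusted p = 0.0493) and *UBXN6*, a cofactor of VCP in caveolin-1 degradation (0.72, adjusted p = 0.00975). Of all tested genes, 16.9% were lower and 16.0% higher in siHHEX, and with the GC correction 0 of the 6 were called. *SRC*, which phosphorylates caveolin-1, stood at 0.30 in siHHEX (adjusted p = 0.110) and 0.11 in siYAP/TAZ (adjusted p = 0.665). Between siHHEX and siYAP/TAZ, *YES1* (-0.78, adjusted p = 0.0079) and the kinase *FYN* (-0.46, adjusted p = 0.0324) were lower in siHHEX and *UBXN6* higher (0.57, adjusted p = 0.0155), while 25.9% of all tested genes were lower and 13.5% higher. The call of *FYN* was lost with median scaling, and with the GC correction all 3 were lost (*YES1* -0.21, *FYN* -0.31 and *UBXN6* 0.26, adjusted p = 0.220, 0.157 and 0.195). In siYAP/TAZ limma called 0 of the 6, with 1 at an unadjusted p under 0.05, as had 27.3% of all tested genes. In siTEAD1/2/3/4 0 changed over 2-fold.

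As a contrast, 11 genes of the flotillin, stomatin and clathrin coats, which serve other membrane domains and pits, were all tested. In siHHEX 5 were higher and 2 lower by limma, against 16.0% and 16.9% of all tested genes, with a median log2 change of 0.30. The flotillins *FLOT1* (0.48, adjusted p = 0.0202) and *FLOT2* (0.91, adjusted p = 0.00475), the clathrin light chain *CLTB* (0.72, adjusted p = 0.0105) and the adaptor subunits *AP2A1* and *AP2S1* (0.60 and 0.51, adjusted p = 0.0216 and 0.0299) were higher. *STOM*, stomatin (-0.49, adjusted p = 0.0468), and the clathrin heavy chain *CLTC* (-0.59, adjusted p = 0.00709) were lower. With median scaling 6 were higher and 1 lower, against 20.6% and 13.7% of all tested genes. *STOM* and *CLTC* have 42.6% and 41.5% GC and the 5 higher genes between 56.9% and 63.9%, and with the GC correction *FLOT2* alone was called (0.60, adjusted p = 0.0401). Between siHHEX and siYAP/TAZ, *CLTC* was lower in siHHEX (-0.75, adjusted p = 0.00407), and 4 genes, *FLOT2*, *CLTA*, *CLTB* and *AP2S1*, were higher, by 0.32 to 0.90, against 25.9% lower and 13.5% higher of all tested genes. With median scaling 7 were higher and 1 lower, against 23.5% and 14.2% of all tested genes. With the GC correction, by which 5.46% of all genes were higher and 3.42% lower, *CLTB* alone was called (0.50, adjusted p = 0.0295), with *CLTC* at -0.20 (adjusted p = 0.211). In siYAP/TAZ limma called 0 of the 11, with 2 at an unadjusted p under 0.05, against 27.3% of all tested genes, and a median of 0.11, and in siTEAD1/2/3/4 0 changed over 2-fold.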

How the data were processed

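RNA of siRNA-transfected HCT116 cells was extracted by Trizol and sequenced on a HiSeq instrument, and the authors deposited FPKM for each gene, 1 value a library. The submitters' processing notes name Trimmomatic 0.36, HISAT2 2.0.5, Cufflinks 2.2.1 and HTSeq 0.9.1, with no role or order. The genome build and annotation of the RNA-seq are not given in the sources used here. The study's test for differential expression needs counts, which were not used here, so that depth is unknown.

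Libraries were grouped by their labels. The 10677 genes that reached 1 FPKM in 2 or more of the 8 libraries were tested with limma 3.58.1 (R 4.3.3) on log2(FPKM + 1), a scale that understates the change of low genes, in 1 fit of 4 groups with a variance trend. Adjusted p-values are Benjamini-Hochberg over all tested genes, with a threshold of 0.05. The single siTEAD1/2/3/4 library got no p, and a 2-fold change was used. The GC and length correction took a natural spline (4 df each) off each library's difference from the mean of all 8 for the 10349 tested genes (96.9%) with both in GENCODE release 44. Promoters are RefSeq windows; the proteins' sequences and 2 members' promoters were not used here. Other alternatives were a pseudocount of 0.1, no filter, median scaling, only the compared groups, a replicate block, the study's criterion (over 2-fold, unadjusted p under 0.05), a 1.5-fold cutoff and leaving out each library. Named are the members, the siRNA targets, the listed genes and markers, and the 5 genes most correlated with *CAV1* or *CAV2*; neighbours were added by position. Members and lists were chosen with earlier results of these data known. Tables used Python 3.11.15.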

Additional observations from a re-analysis of the deposited data

Results flagged for a closer look

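*CAVIN1* drew attention because the 2 replicated knockdowns differed in it by a test of the difference itself. It was higher in siHHEX (42.0, 50.2 and 69.0 FPKM) than in siYAP/TAZ (31.5 and 29.2 FPKM), by 0.78 on the log2(FPKM + 1) scale (SE 0.182, adjusted p = 0.0122, limma). Of all tested genes, 13.5% were called higher in this comparison. *CAVIN1* has 59.2% GC and the siHHEX libraries carry the GC trend; with the correction the difference was 0.60 (adjusted p = 0.0468). The call was lost without siYAP/TAZ 2 (0.72, adjusted p = 0.0831) and with the replicate block and the correction (0.45, adjusted p = 0.0949). No cause of the difference was tested.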

How the results depend on the processing

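*CAV1* and *CAV2* stayed below siNC in all 3 knockdowns under every alternative run. Of 5 tested members besides *CAV2*, the number called in siHHEX was 1 throughout, except 0 without either siNC library (range 0 to 1 over the left-out libraries). In siYAP/TAZ it was 0 without the filter (*CAV1* adjusted p = 0.0773) and by the study's criterion, 0 to 0 without each library in turn, and 2, *CAV1* and *CAVIN1*, with median scaling, the GC and length correction, only the compared groups, the replicate block, and the block with the correction. In siTEAD1/2/3/4 it was 0, and 1 with the 1.5-fold cutoff. Between siHHEX and siYAP/TAZ 1 was called, 0 by the study's criterion and with the block and the correction (*CAVIN1* 0.45, adjusted p = 0.0949), and 0 to 2 without each library. The cause of these shifts was not tested. No pairing by replicate number was seen, with correlations of same-numbered deviations between -0.0704 and 0.0215. In a group of 2 libraries the deviations mirror each other, so that this check is weak. With 2 of 3 siHHEX libraries numbered as in siNC, the block moved the *CAVIN1* call in siYAP/TAZ (adjusted p = 0.0279, limma). It also moved the calls over all genes below.

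Calls over all tested genes also moved. In siHHEX there were 1806 lower and 1712 higher. They were 871 and 1036 without the filter, 331 and 371 with the GC correction, 1039 and 1023 with the block, 91 and 60 with both, 969 and 1140 without siHHEX 1, 9 and 10 without siNC 1 or 12 and 15 without siNC 2, and 99 and 75 by the study's criterion. In siYAP/TAZ, 227 and 657 became 81 and 239 without the filter and 539 and 1220 with only the compared groups, 633 and 549 with the GC correction, 464 and 467 with the block and correction, 11 and 11 or 7 and 8 without siNC 1 or siNC 2, 41 and 51 without siYAP/TAZ 2, and 46 and 122 by the study's criterion. Between siHHEX and siYAP/TAZ, 2763 and 1437 became 354 and 565 with the correction, 102 and 94 with the block and correction, 618 and 408 without siYAP/TAZ 2, and 137 and 25 by the study's criterion. Without siHHEX 1 they became 1802 and 1162, and with median scaling 1514 and 2504. In siTEAD1/2/3/4, 51 and 44 became 83 and 202 with a pseudocount of 0.1 and 233 and 443 with the 1.5-fold cutoff. With median scaling they became 58 and 29, and with the GC and length correction 55 and 23. Each condition has at most 3 libraries and the depth is unknown.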
